A study of Homo sapiens with 23 samples.

Results

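The TM4SF family is a small group of membrane proteins, and its members here were 6 genes given by symbol: TM4SF18, TM4SF1, TM4SF4, TM4SF5, TM4SF19 and TM4SF20. All 6 were matched by Ensembl identifier among the 57875 genes in the count files. The family was chosen by a measured value, the high TM4SF18 level in the AGO1/2/3 knockout line. Differences of the members between that line and wild type are therefore given below as a description and not as a test. For genes around TM4SF18 and for tetraspanins, calls in that line are counted by the same rule as in the other lines. Of the 6 members, 4 passed the filter on low counts. Of these, TM4SF18, TM4SF19 and TM4SF20 were tested in the other lines, while TM4SF1 passed only through its AGO1/2/3 libraries and is given without a test, as are TM4SF4 and TM4SF5.

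The study measured RNA in HCT116, a cell line from a human colon cancer, to ask how gene expression changes when Argonaute proteins, the carriers of microRNAs, are lost. There were 15 libraries, 3 from each of 5 lines: wild type, an AGO1 knockout, an AGO2 knockout, an AGO1 and AGO2 double knockout (AGO1/2) and an AGO1, AGO2 and AGO3 triple knockout (AGO1/2/3). Each knockout is 1 line made by CRISPR from HCT116, AGO4 was left intact throughout, and all lines grew in the same medium, so a genotype and the history of its line cannot be told apart. Total counts ran from 27709971 to 45271146 per library. The study's methods call the 3 samples of a line biological replicates; p-values measure the spread between these samples of a line and not that between lines of the same genotype.

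TM4SF proteins cross the membrane several times and resemble tetraspanins in shape, although their sequences are not related. TM4SF1, the best known, was found as an antigen on carcinoma cells and is abundant on endothelial cells, where it sits on thin cell protrusions. TM4SF4 and TM4SF5 are known from liver, gut and tumours of those tissues, TM4SF19 from osteoclasts and macrophages, and TM4SF20 from a change in membrane topology that controls cleavage of a transcription factor. TM4SF18 is little studied.

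The targeted genes were looked at first. AGO1 RNA was 131 ± 20.3 CPM (counts scaled to a common library size; SD, n = 3) in wild type and 35.3 ± 3.74, 36.6 ± 1.17 and 32.4 ± 3.47 CPM in the AGO1, AGO1/2 and AGO1/2/3 lines, against 160 ± 1.64 CPM in the AGO2 line. AGO3 RNA was 112 ± 16.0 CPM in wild type and 51.8 ± 5.68 CPM in the AGO1/2/3 line. AGO2 RNA was 407 ± 45.6 CPM in wild type, 286 ± 26.3 in the AGO2 line, 339 ± 22.8 in the AGO1/2 line and 538 ± 19.9 in the AGO1/2/3 line. AGO1 and AGO3 were thus lower in each line labelled for their loss, while AGO2 RNA was higher than wild type in the AGO1/2/3 line. A small CRISPR mutation need not lower the RNA of its gene, so the AGO2 RNA level checks no label. AGO4, which was not targeted, was at 25.1 ± 3.34 CPM in wild type and 61.4 ± 7.06 CPM in the AGO1/2/3 line. It was lower in the AGO2 line, at 15.4 ± 4.79 CPM, with 3 of 3 libraries below every wild type library. That log2 difference was −0.70 ± 0.23 (SE, adjusted p = 0.046 by the edgeR test described below). The call was lost in 8 of 15 fits that each left out 1 library.

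TM4SF18 (ENSG00000163762) lies on the minus strand of chromosome 3 at chr3:149318498-149334414 (hg38). Wild type libraries held 35, 10 and 56 counts, or 1.10, 0.319 and 1.69 CPM. AGO1 libraries held 11, 5 and 6 counts (0.342, 0.183 and 0.200 CPM), and AGO2 libraries held 8, 10 and 8 counts (0.179, 0.231 and 0.203 CPM). AGO1/2 libraries held 207, 288 and 177 counts (6.63, 9.93 and 6.52 CPM), and AGO1/2/3 libraries held 4613, 5007 and 5601 counts (118, 175 and 190 CPM). The single knockouts were therefore lowest, wild type came next, the double knockout lay above every wild type library and the triple knockout above every other library. Wild type was the most uneven line: its highest library was 5.30 times its lowest, and replicate 2 lay inside the range of the AGO1 line. The AGO1 and AGO2 lines overlapped each other and the AGO1 line overlapped wild type, while the AGO2 line lay below all 3 wild type libraries and the AGO1/2 and AGO1/2/3 lines overlapped with no other line.

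Group means of TM4SF18 were 1.03 ± 0.687 CPM in wild type, 0.242 ± 0.0876 with AGO1 lost, 0.204 ± 0.0262 with AGO2 lost, 7.69 ± 1.94 in the double knockout and 161 ± 38.2 in the triple knockout (SD, n = 3). The AGO1/2/3 mean was 156 times the wild type mean and 20.9 times the AGO1/2 mean, and its lowest library was 11.9 times the highest AGO1/2 library. On the log2 scale the difference between AGO1/2/3 and wild type was 7.27 ± 0.36 (SE), the value that chose the family. Per length of merged exons TM4SF18 stood above 15.0% of the 22582 tested genes with a length in wild type and above 2.85%, 3.09% and 49.3% in the AGO1, AGO2 and AGO1/2 lines. In the AGO1/2/3 line that share was 96.0%, so an RNA near the limit of detection in the single knockouts was among the abundant ones there.

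**Figure D1:**
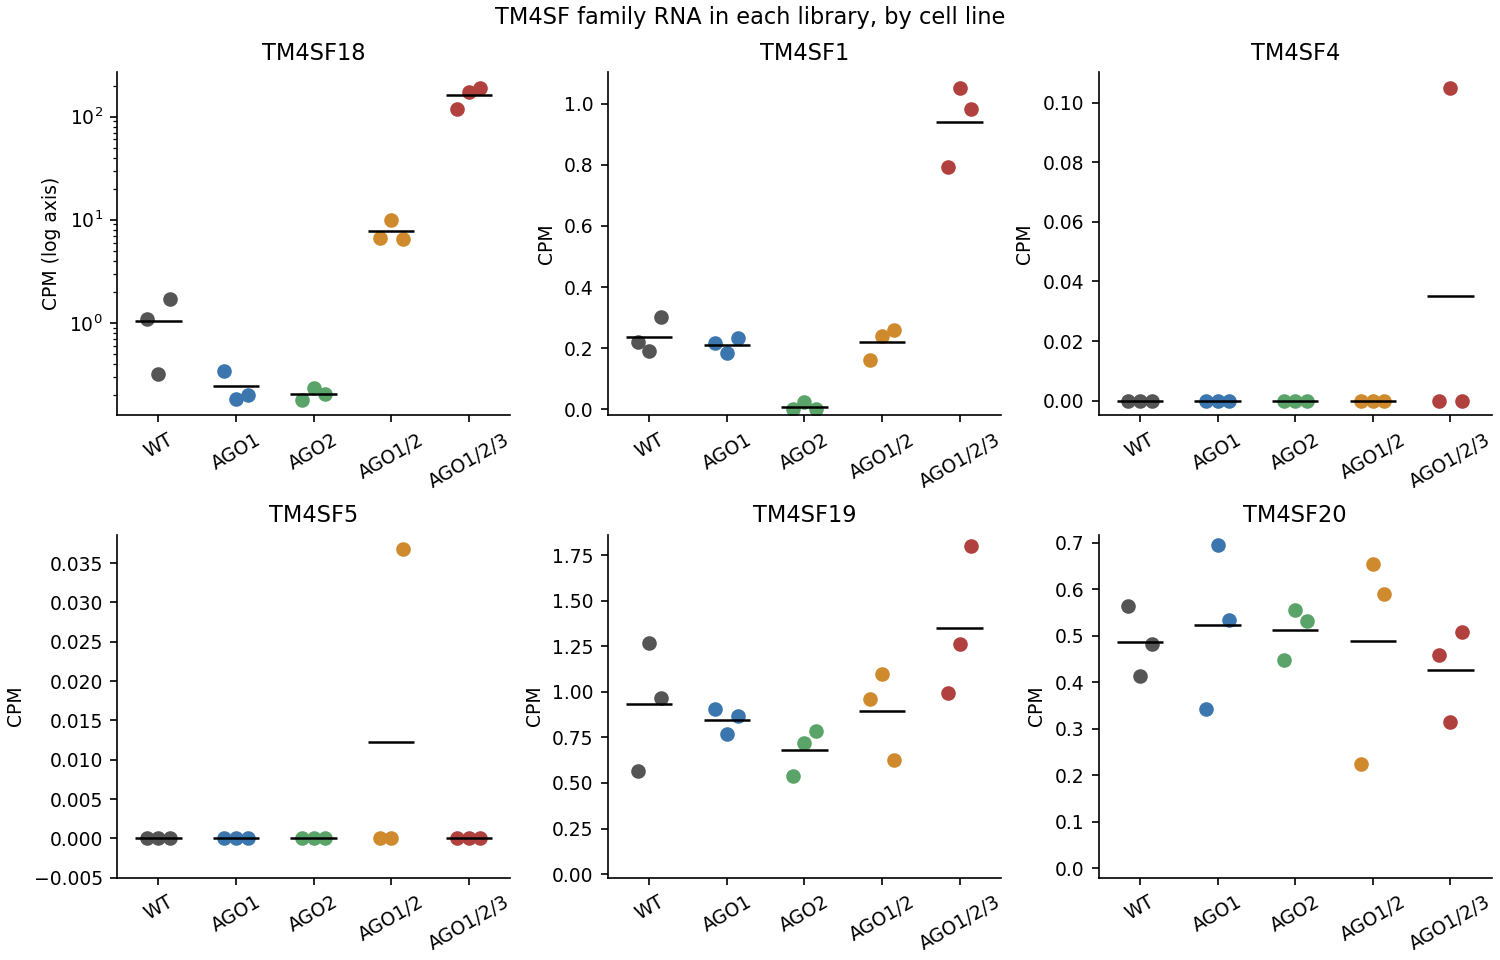
Level of each family member (CPM) in the 15 libraries, by cell line; points are libraries and bars are means of 3, and the TM4SF18 axis is logarithmic. TM4SF18 spans 0.179 to 190 CPM, TM4SF1 is higher in the AGO1/2/3 line and near 0 in the AGO2 line, and TM4SF4 and TM4SF5 each have counts in 1 library.

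The 3 lines that did not choose the family were tested against wild type. TM4SF18 was higher in the AGO1/2 line by 2.88 ± 0.34 (log2, SE; adjusted p = 4.4e-05 by the edgeR quasi-likelihood test, with Benjamini-Hochberg adjustment over all genes), with 3 of 3 libraries above every wild type library. It was the increase of rank 46 among the 22842 genes tested. In the AGO2 line it was lower by −2.33 ± 0.52 (adjusted p = 0.0086 in the same edgeR test), with 3 of 3 libraries below every wild type library. In the AGO1 line the difference was −2.07 ± 0.54 (adjusted p = 0.027 in the same edgeR test), with 2 of 3 libraries below every wild type library. The AGO1/2 increase was thus well outside the spread between replicates, whereas the AGO1 decrease was fragile. Its adjusted p in the edgeR test rose to 0.066 without wild type replicate 1, 0.12 without wild type replicate 3, 0.054, 0.11 and 0.076 without AGO1 replicates 1, 2 and 3, and 0.12 with only the libraries of both lines, in a range of 0.00062 to 0.12 over all alternatives run. These contrasts share the wild type libraries with the contrast that chose the family. The AGO2 files name another mapping mode in their headers (given with the processing), so mode and genotype cannot be told apart in that line.

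Markers of the labelled cell type and of others were read beside these changes; fewer cells of a type and less RNA per cell cannot be told apart in such samples. Of 12 colon epithelium markers the most abundant was KRT8 and the list summed to 2040 ± 112 CPM in wild type, 1520 ± 95.1 with AGO1 lost, 1880 ± 107 with AGO2 lost, 2570 ± 245 in the AGO1/2 line and 2010 ± 244 in the AGO1/2/3 line; CDX1 was at 0 in every library. EPCAM, CDH1 and CLDN7, named after their values were seen, averaged 213, 97.7 and 110 CPM in wild type, 169, 43.9 and 65.8 in the AGO1 line, 266, 66.9 and 76.1 in the AGO2 line, 113, 30.9 and 33.6 in the AGO1/2 line and 63.6, 8.57 and 11.2 in the AGO1/2/3 line. Of the 9 tested genes of the list, the other 6 had log2 differences in AGO1/2/3 of 0.41 (KRT8), 0.28 (KRT18), 0.19 (CDH17), 0.02 (KRT19), −0.22 (CLDN4) and −0.58 (CDX2). In the same order those 6 were at 0.76, 0.39, 0.01, 0.64, −0.31 and −0.20 in AGO1/2. There EPCAM, CDH1 and CLDN7 were at −0.92, −1.66 and −1.71. The 6 were at −0.34, −0.31, 0.22, −0.41, −1.06 and 0.20 in AGO1, and at −0.08, −0.41, −0.22, 0.10, −0.22 and 0.01 in AGO2. In no line did all tested genes of the list thus go the same way. In AGO1, however, all of them but CDH17 and CDX2 were lower, as was the list sum. The part of these markers in the result was not tested. Of 12 endothelial markers, the cell type in which TM4SF1 is best known, CDH5, CLDN5 and ERG each averaged under 0.1 CPM and ESAM was the most abundant. That list summed to 9.67 ± 0.566, 10.0 ± 0.650, 7.09 ± 0.154, 9.64 ± 1.65 and 8.19 ± 0.625 CPM in the 5 lines in the order used above. The 8 tested genes of that list had log2 differences in AGO1/2/3 of 0.59 (VWF), 0.36 (ROBO4), 0.24 (TIE1), −0.17 (EMCN), −0.30 (PECAM1), −0.36 (FLT1), −0.52 (ESAM) and −1.25 (KDR). VWF, ROBO4 and TIE1, the last near 0 in the AGO2 line, had the signs of TM4SF18 in each line and the other 5 did not, and the part of these markers in the result was not tested. Of 7 fibroblast markers COL1A1 was the most abundant, LUM averaged under 0.1 CPM and the sums were 27.4 ± 3.66, 16.2 ± 2.76, 12.9 ± 0.957, 15.2 ± 1.47 and 29.0 ± 1.46 CPM. The 5 tested fibroblast genes had log2 differences in AGO1/2/3 of 3.10 (COL3A1), 0.09 (COL1A1), −0.04 (PDGFRB), −0.05 (COL1A2) and −0.36 (DCN); COL3A1 was also at 3.44 in the AGO1 line and PDGFRB at −3.77 in the AGO2 line, both picked out after their values were seen and both at wild type means under 1 CPM. The 6 blood markers summed to 1.21 ± 0.0594, 1.67 ± 0.344, 1.19 ± 0.241, 4.51 ± 0.982 and 8.58 ± 0.786 CPM, a change carried by LYZ, since the other 5 together stayed between 0.833 and 1.96 CPM and TYROBP was at 0 throughout.

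TM4SF1 (ENSG00000169908, chr3:149369022-149377692, minus strand) starts 43.3 kb from the start of TM4SF18. It held 7, 6 and 10 counts in wild type, 7, 5 and 7 with AGO1 lost, 0, 1 and 0 with AGO2 lost, 5, 7 and 7 in the AGO1/2 line and 31, 30 and 29 in the AGO1/2/3 line. The AGO1/2/3 libraries were all above the other 12, the AGO2 libraries were all below them, and the remaining 3 lines overlapped. It passed the filter only through the AGO1/2/3 libraries, and every level outside that line was at most 0.301 CPM, where 3 counts correspond to 0.0672 to 0.111 CPM depending on the library. Its AGO1/2/3 mean of 0.942 ± 0.135 CPM was 3.97 times the wild type mean of 0.237 ± 0.0573 CPM, a log2 difference of 1.96 ± 0.30. The step from wild type to AGO1/2 seen for TM4SF18 was not detectable for TM4SF1, whose log2 difference was −0.13 ± 0.38; the difference between the genes was not tested.

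In the AGO2 line the fitted log2 difference of TM4SF1 was −4.38 ± 0.62, with 3 of 3 libraries below every wild type library. The fitted size rests on 1 count in 3 libraries, and without AGO2 replicate 2, which holds that count, it was −5.98. As pooled counts, 23 in wild type against 1, the ratio was 30.4 with an exact 95% counting interval of 4.93 to 1250, which covers counting error only. These counts give the size of that ratio only loosely. Its AGO1 value was −0.16 ± 0.38, within the spread between replicates.

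TM4SF4 (chr3:149474697-149503394, plus strand), 140 kb from TM4SF18, had no count in 14 libraries and 3 counts in AGO1/2/3 replicate 2. TM4SF5 (chr17:4771884-4783213, plus strand) had no count in 14 libraries and 1 count in AGO1/2 replicate 3. Both stayed at or under the 3 counts taken as the floor, so neither gets a fold change.

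TM4SF19 (ENSG00000145107, chr3:196319342-196338503, minus strand) lies far from the cluster on the same chromosome. It held 18, 40 and 32 counts in wild type, 29, 21 and 26 with AGO1 lost, 24, 31 and 31 with AGO2 lost, 30, 32 and 17 in the AGO1/2 line and 39, 36 and 53 in the AGO1/2/3 line. Every knockout line overlapped wild type. The tested log2 differences were −0.14 ± 0.31, −0.46 ± 0.31 and −0.05 ± 0.31 in AGO1, AGO2 and AGO1/2 (adjusted p = 0.84, 0.30 and 0.94, edgeR with Benjamini-Hochberg adjustment), and the AGO1/2/3 value was 0.52 ± 0.29. TM4SF19 levels are uncertain in themselves: of the 1926 stretches of 31 bases in its annotated transcripts, 47.0% also occur in other genes, 786 of them in the readthrough gene TM4SF19-DYNLT2B. For TM4SF18 that share was 0.2% and for TM4SF1 it was 0.0%, and no such stretch was shared between any pair of the 6 members. Stretches of that length thus told TM4SF18 and TM4SF1 from the other members.

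TM4SF20 (ENSG00000168955, chr2:227362038-227381995, minus strand) had group means between 0.428 and 0.523 CPM. Its libraries held 18, 13 and 16 counts in wild type, 11, 19 and 16 with AGO1 lost, 20, 24 and 21 with AGO2 lost, 7, 19 and 16 in the AGO1/2 line and 18, 9 and 15 in the AGO1/2/3 line. All lines overlapped. Log2 differences were 0.09 ± 0.35, 0.07 ± 0.34 and −0.01 ± 0.36 in AGO1, AGO2 and AGO1/2 (adjusted p = 0.92, 0.91 and 0.99, edgeR with Benjamini-Hochberg adjustment) and −0.18 ± 0.36 in AGO1/2/3. No line could be separated from wild type at these counts, and the sign of the AGO2 value turned when libraries were scaled by total counts alone (−0.05).

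**Figure D2:**
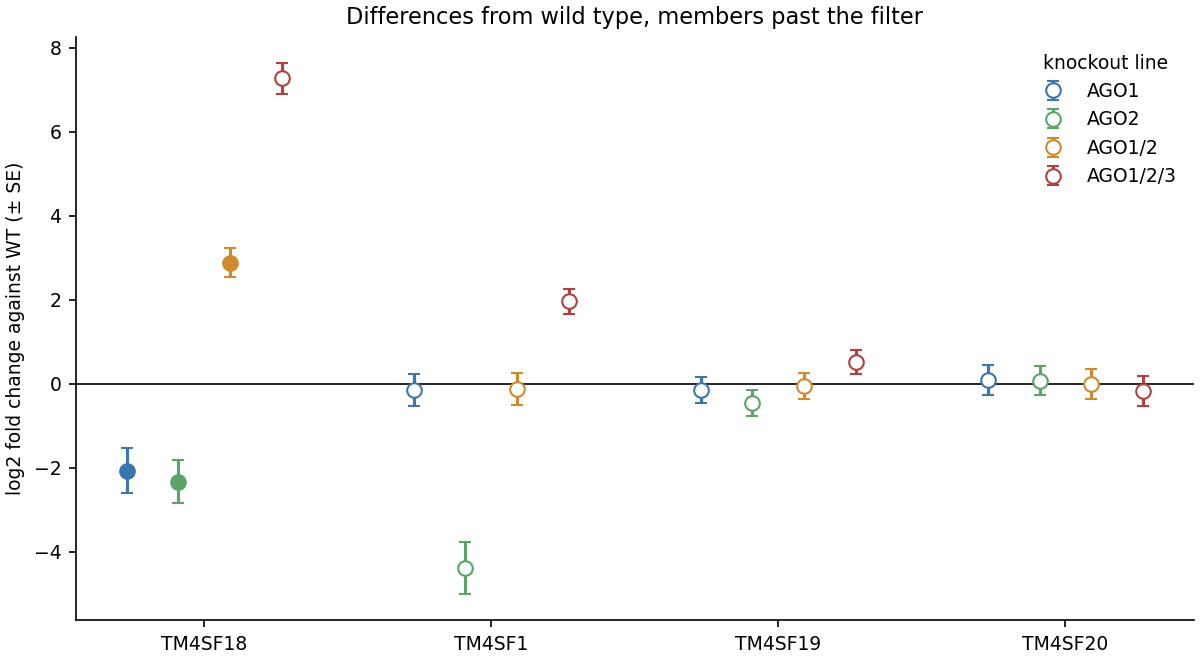
Log2 fold change against wild type (± SE) of the 4 members that passed the filter, by knockout line; filled points passed the test, open points did not, and the AGO1/2/3 and TM4SF1 points are open because they are given without a test. TM4SF18 is lower in both single knockouts and higher in AGO1/2 and AGO1/2/3, the low TM4SF1 value in the AGO2 line rests on 1 count, and TM4SF19 and TM4SF20 stay near 0.

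Of the 3 members tested, 1 was called lower and 0 higher in the AGO1 line, where 5.50% of all 22842 tested genes were called lower and 3.17% higher. In the AGO2 line 1 of 3 was lower and 0 higher, beside 10.8% and 8.55% of all genes. In the AGO1/2 line 1 of 3 was higher and 0 lower, beside 8.37% and 8.35%. In the AGO1/2/3 line, which chose the family, members were not counted, and 20.3% and 19.8% of all genes were called higher and lower. With 3 genes the shares say little of the family as a whole, and each call was TM4SF18. The counts of 0 from edgeR were also 0 at an unadjusted p under 0.05 and in DESeq2.

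Levels of different genes can be compared per length, as CPM per kb of merged exons. In wild type TM4SF19 was the most abundant member at 0.492 ± 0.188, ahead of TM4SF18 at 0.237 ± 0.158, TM4SF20 at 0.169 ± 0.0260 and TM4SF1 at 0.0679 ± 0.0164. TM4SF19 and TM4SF18, and TM4SF18 and TM4SF20, did not differ beyond 1 SD of each. In the AGO1/2 line TM4SF18 led at 1.77 ± 0.445, and in the AGO1/2/3 line it reached 36.9 ± 8.76 while TM4SF19 was at 0.711 ± 0.215 and TM4SF1 at 0.269 ± 0.0386. TM4SF18 made up 24.2% ± 14.3 of the summed family level in wild type, 7.48% ± 2.79 with AGO1 lost, 8.07% ± 0.745 with AGO2 lost, 70.9% ± 1.21 in the AGO1/2 line and 97.0% ± 0.257 in the AGO1/2/3 line. The family thus passed from a mixture of low RNAs to nearly pure TM4SF18.

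The opposite directions in single and double knockouts can be put as non-additivity, the AGO1/2 difference from wild type less the sum of the AGO1 and AGO2 differences. This contrast was chosen after the values were seen, so it describes their size and was given no test. For TM4SF18 the single knockout differences summed to −4.40 on the log2 scale and the double knockout stood at 2.88, so the non-additive part was 7.28 ± 0.68. For TM4SF1 it was 4.42 ± 0.77, a value that rests on the AGO2 libraries with 0, 1 and 0 counts and was 6.01 without AGO2 replicate 2. TM4SF19 and TM4SF20 gave 0.55 ± 0.44 and −0.16 ± 0.49. TM4SF18 thus stood higher in AGO1/2 than the single knockouts add up to, and the TM4SF1 value depends on 1 count.

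Short sequences from the members are shown next because the lines differ in the proteins that carry microRNAs, which pair by their seed, bases 2 to 8, with matching sites in a 3′-UTR. The mature sequences below are from RefSeq (GRCh38.p14), with the seed in capitals; of the 6 microRNAs examined, those whose copy number per cell the study's methods cover, these had a seed match in any member.
hsa-miR-29a-3p: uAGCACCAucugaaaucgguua
hsa-miR-21-5p: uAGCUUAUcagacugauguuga
The annotated 3′-UTR of TM4SF18, 2980 bases long, held 1 match to each of these seeds, and that of TM4SF20 held 1 match to the miR-29a-3p seed. The sites (hg38, 5′ to 3′ on the gene's strand, match in capitals) lie at chr3:149321371-149321397 (minus strand), chr3:149319280-149319306 (minus strand) and chr2:227363359-227363385 (minus strand).
TM4SF18, miR-29a-3p match: attgaaatgaTGGTGCTttctgcattt
TM4SF18, miR-21-5p match: tatcaagtccATAAGCTagtcatatct
TM4SF20, miR-29a-3p match: agtagtacagTGGTGCTatctcagctt
Such matches are common: 24.3% of 1109 3′-UTRs within 10% of the length of that of TM4SF18 held the miR-29a-3p match and 15.7% the miR-21-5p match, against 14.0% and 8.7% of all 19229. No match to the seeds of miR-125b-5p, miR-27a-3p or the shared seed of let-7a-5p and let-7f-5p was found in any member, and TM4SF1, TM4SF4, TM4SF5 and TM4SF19 had no match to any of the 6 microRNAs. TM4SF20, which did not differ detectably between lines, and TM4SF18, which differed most, thus shared a miR-29a-3p match, and a match is a description and not a functional site.

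To show the promoters themselves, windows of all 6 members (250 bases before to 50 bases after the RefSeq start, GRCh38.p14) were searched on both strands for 4 motifs picked after the values were known: CATTCC, bound by TEAD factors; TGANTCA, bound by AP-1; TATAAA, the TATA box; and CACCTG, bound by ZEB and SNAI factors. CATTCC was found once in TM4SF18, starting 46 bases before the RefSeq start, which lies 778 bases inside the gene as annotated in GENCODE and used for distances here, and at 2 places in TM4SF1, 122 and 13 bases before the start. The windows around the matches, in capitals, lie on the minus strand at chr3:149333667-149333692, chr3:149377756-149377781 and chr3:149377647-149377672.
TM4SF18, CATTCC match: aaaaacaccgCATTCCtttggcacag
TM4SF1, upstream CATTCC match: aagggcgggaCATTCCccctgcctct
TM4SF1, match on the other strand near the start: agaggtagcaGGAATGggctgagagt
The other 4 members had no CATTCC in the window, and 14.0% of 35116 promoter windows had at least 1. TGANTCA was found in TM4SF19 (7.7% of windows), TATAAA in TM4SF4 (11.5%) and CACCTG in none of the 6 (20.6%). Both promoter windows of the neighbour WWTR1 held none of the 4 motifs. The matches describe these windows and support nothing about the levels.

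The surroundings of TM4SF18 were taken as all genes overlapping 1 Mb either side of its start, 50 in the files, of which 15 passed the filter. The median log2 difference of these 15 was −0.08 (AGO1), 0.07 (AGO2), 0.27 (AGO1/2 line) and 0.60 (AGO1/2/3 line), beside −0.01, −0.02, 0.01 and −0.01 for all tested genes. These 15 include TM4SF1, which passed the filter only through its AGO1/2/3 libraries and whose AGO2 value rests on 1 count. Without it the medians were −0.07, 0.09, 0.28 and 0.58 in the same order. Of the other 14 genes 3 were called higher in the AGO1/2 line and 0 in either single knockout, 1 was called lower with AGO1 lost and 0 in the other lines, and 7 were higher in AGO1/2/3, beside the percentages of all genes given above. In DESeq2 the count of 3 was 2 and the count of 7 was 6. At an unadjusted p under 0.05 the counts of 0 in edgeR were 0 apart from 3 higher in the AGO2 line, and in DESeq2 they were 0. Much of the stretch was therefore modestly higher in AGO1/2/3, by far less than TM4SF18. No set test was made, and the medians depend on the processing and on the genes taken. The AGO2 median was −0.05 under total counts and −0.03 without wild type replicate 3. The AGO1/2 median was 0.09 by DESeq2, which was run without the filter, or in edgeR with no filter. Both of these cover more neighbours than the 15. That median was 0.26 in edgeR with DESeq2 size factors, 0.13 within 2 Mb and 0.17 to 0.39 without 1 library.

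WWTR1, which encodes the coactivator TAZ of the Hippo pathway, starts 402 kb from TM4SF18 and had the highest AGO1/2 and AGO1/2/3 differences among the neighbours averaging 1 CPM or more. Its libraries were at 88.6, 108 and 102 CPM in wild type, 59.6, 74.4 and 85.9 with AGO1 lost, 81.2, 88.5 and 76.2 with AGO2 lost, 138, 207 and 200 in the AGO1/2 line and 283, 313 and 288 in the AGO1/2/3 line. Both single knockouts lay below wild type and both multiple knockouts above it, without overlap with wild type in any line. WWTR1 was called higher in AGO1/2 by 0.87 ± 0.15 (adjusted p = 0.0012, edgeR with Benjamini-Hochberg adjustment), whereas −0.45 ± 0.15 in AGO1 and −0.28 ± 0.15 in AGO2 did not pass (adjusted p = 0.090 and 0.20, same edgeR test). In the same edgeR test, with Benjamini-Hochberg adjustment, the AGO1 decrease did pass under total counts (−0.54, adjusted p = 0.028), with the replicate block (−0.45, adjusted p = 0.044), without AGO1 replicate 3 (−0.55, adjusted p = 0.047) and without AGO1/2 replicate 1 (−0.44, adjusted p = 0.037), its adjusted p running from 0.028 to 0.30 over the alternatives. Its non-additive part was 1.59 ± 0.22 and its AGO1/2/3 difference was 1.56 ± 0.16.

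Of the other neighbours averaging 1 CPM or more, the ubiquitin ligase gene RNF13 and WWTR1-IT1, annotated inside WWTR1, were also called higher in the AGO1/2 line, by 0.27 ± 0.09 and 0.70 ± 0.22 (adjusted p = 0.046 and 0.039, edgeR with Benjamini-Hochberg adjustment). Both calls were fragile. The RNF13 call was lost in 13 of 15 leave-one-out fits, all but those without wild type replicate 2 or AGO1 replicate 1, with values of 0.19 to 0.31 and p up to 0.19. The WWTR1-IT1 call was lost in 9 of 15, those without wild type replicates 2 or 3, AGO2 replicates 2 or 3, AGO1/2 replicates 2 or 3 or any AGO1/2/3 library, with values of 0.53 to 0.85 and p up to 0.18. In AGO1/2/3 WWTR1-IT1 was at 0.63 ± 0.22, and it left the count of genes higher there in 5 of 15 fits, those without wild type replicates 2 or 3 or any AGO1/2/3 library (0.53 to 0.73). AGO1/2/3 values were 1.11 ± 0.13 for HPS3, of the machinery for lysosome-related organelles, 0.98 ± 0.18 for GYG1, the primer of glycogen synthesis, 0.77 ± 0.13 for COMMD2, 0.56 ± 0.11 for the DNA translocase HLTF and 0.41 ± 0.09 for RNF13. PFN2, an actin-binding profilin 716 kb away, was called lower in AGO1 by −0.49 ± 0.14 (adjusted p = 0.037, same edgeR test), a call lost in 10 of 15 leave-one-out fits (values −0.59 to −0.33, p up to 0.14; kept without wild type replicate 2, AGO1 replicate 1, AGO1/2 replicate 1 or AGO1/2/3 replicates 1 or 3). PFN2 stood at −0.08 ± 0.14 in AGO1/2/3, and WWTR1-AS1 stood at −0.02 ± 0.22. The higher levels in AGO1/2/3 were thus spread over both sides of TM4SF18 with exceptions among them. TM4SF18-AS1, on the opposite strand and sharing 96 stretches of 31 bases with TM4SF18, held 2 to 12 counts in every library, so the counts assigned to TM4SF18 were not mirrored there.

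**Figure D3:**
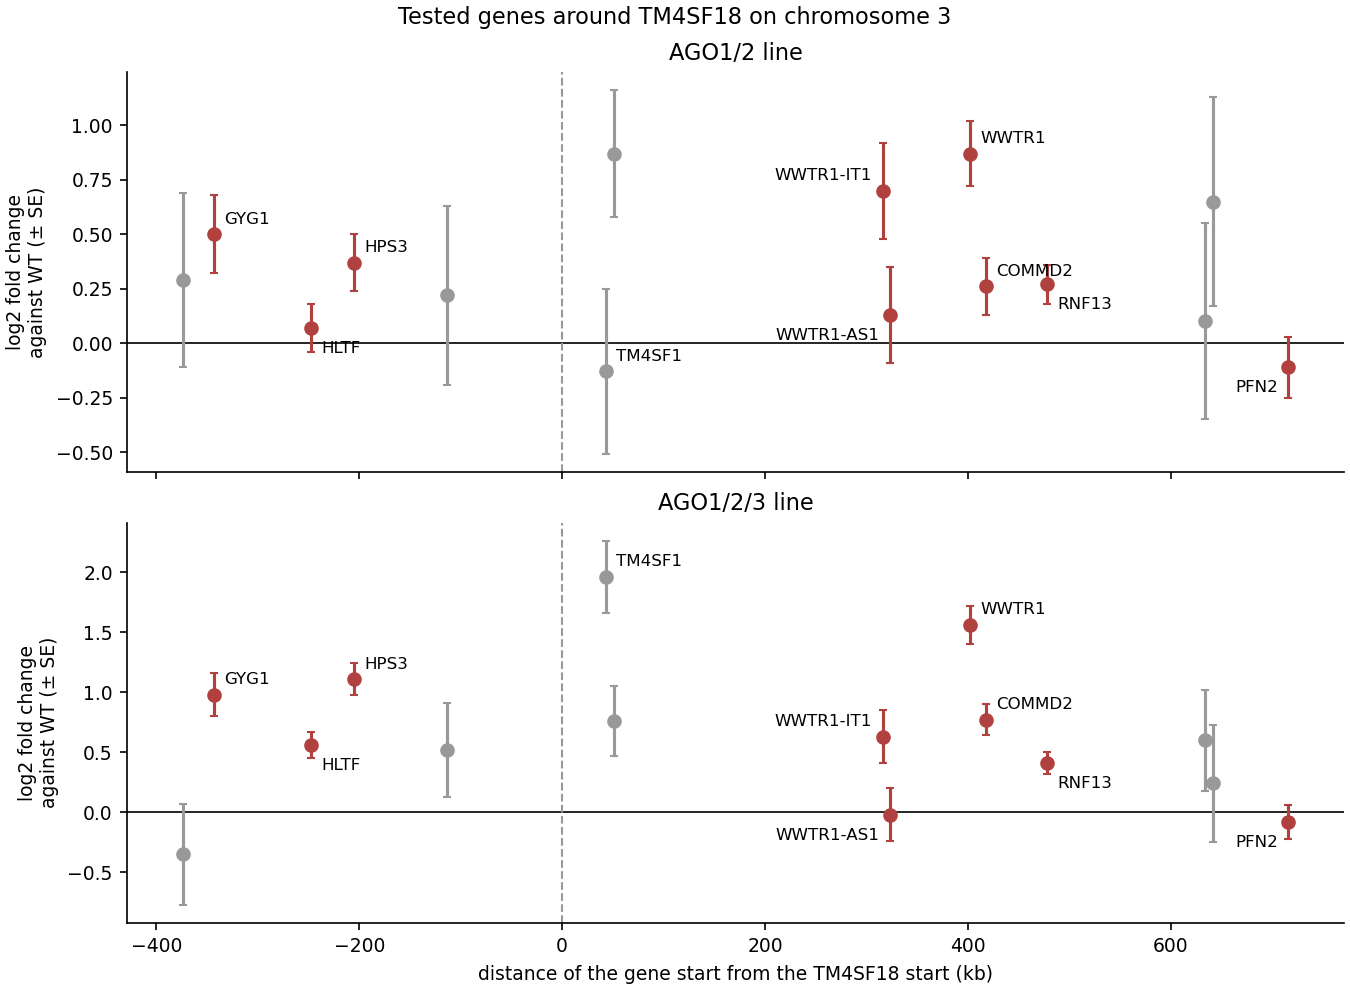
Log2 fold change against wild type (± SE) of the 15 genes past the filter within 1 Mb of TM4SF18, by distance of the gene start (kb), in the AGO1/2 and AGO1/2/3 lines. TM4SF1, among them, is given without a test. Red points have a mean of at least 1 CPM, grey points less, and the dashed line is TM4SF18, which is not plotted. WWTR1, at 0.87 and 1.56, is the highest red point in both panels, and PFN2 stays near 0.

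Tetraspanins, the family that TM4SF proteins resemble in shape, organise integrins and other partners in the membrane. All 33 listed genes were in the files and 27 were tested. Taking the lines in the order used so far, 0, 1, 6 and 11 were called higher and 2, 3, 2 and 4 lower, beside the percentages of all genes given above. The count of 0 in edgeR was 3 at an unadjusted p under 0.05 and 0 in DESeq2. Their medians were −0.12, −0.08, 0.09 and 0.21. No tetraspanin moved as far as TM4SF18 in AGO1/2 or AGO1/2/3, where their values ran from −2.46 to 1.82 and from −2.57 to 1.16.

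TSPAN1, an epithelial tetraspanin, was at −1.44 ± 0.26 with AGO1 lost, −0.80 ± 0.24 with AGO2 lost and 1.82 ± 0.24 in the AGO1/2 line. Its adjusted p in that order was 0.0030, 0.034 and 9.5e-05 (edgeR with Benjamini-Hochberg adjustment). These are the signs of TM4SF18 in the lines tested. CD82, TSPAN4, TSPAN9, TSPAN15, TSPAN18 and TSPAN32 had them too, so the order is not particular to TSPAN1. CD63, of late endosomes and exosomes, was higher in the AGO2 line by 0.33 ± 0.08 and in the AGO1/2 line by 0.50 ± 0.08 (adjusted p = 0.013 and 0.00052, same edgeR test), and CD9 was higher in the AGO1/2 line by 0.51 ± 0.14 (adjusted p = 0.019). TSPAN4 was lower with AGO1 or AGO2 lost by −0.60 ± 0.09 and −0.46 ± 0.09 (adjusted p = 0.0010 and 0.0056), TSPAN18 with AGO2 lost by −0.66 ± 0.18 (adjusted p = 0.023) and TSPAN7 in the AGO1/2 line by −2.15 ± 0.30 (adjusted p = 0.00019), all in the same edgeR test. Among these, the calls of TSPAN1, CD63 and TSPAN18 in the AGO2 line and of CD9 in the AGO1/2 line were each lost without some single library. Without 1 library TSPAN1 ran from −1.09 to −0.66 (p up to 0.14; lost without wild type replicates 2 or 3 or AGO2 replicates 2 or 3), and CD63 from 0.26 to 0.36 (p up to 0.076; lost without wild type replicates 1 or 2 or AGO2 replicates 1 or 3). TSPAN18 ran from −0.89 to −0.50 (p up to 0.098; lost without wild type replicate 2 or AGO2 replicates 2 or 3) and CD9 from 0.32 to 0.65 (p up to 0.075; lost without AGO1/2 replicates 2 or 3). AGO1/2/3 values, as a description, were 1.16 ± 0.21 for CD82, 1.04 ± 0.14 for TSPAN5, 1.02 ± 0.20 for TSPAN12, −2.57 ± 0.31 for TSPAN7 and −0.50 ± 0.18 for TSPAN31, whose call there was lost without wild type replicate 2 or AGO1/2/3 replicates 2 or 3 (−0.60 to −0.43). TSPAN1 was at 0.67 ± 0.24 in AGO1/2/3, with 8.19 CPM against 18.2 CPM in AGO1/2, a fall where TM4SF18 rose. Its AGO1/2/3 call was lost in 8 of 15 leave-one-out fits. TSPAN5 was also called higher in AGO1/2 (0.48 ± 0.14, adjusted p = 0.026, same edgeR test). That call was lost without wild type replicates 1 or 2 or AGO1/2 replicates 2 or 3. Of all calls counted, 2 of 2 in AGO1, 1 of 4 in AGO2, 3 of 8 in AGO1/2 and 11 of 15 in AGO1/2/3 were kept in every leave-one-out fit. Calls thus went both ways in AGO2, AGO1/2 and AGO1/2/3, and both AGO1 calls were lower. By sign, genes went both ways in AGO1 too, where 9 of 27 lay above 0 (up to 0.98). The AGO1 shares called, 0.0% higher and 7.41% lower, stood beside 3.17% and 5.50% of all genes. No family trait is read from them.

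**Figure D4:**
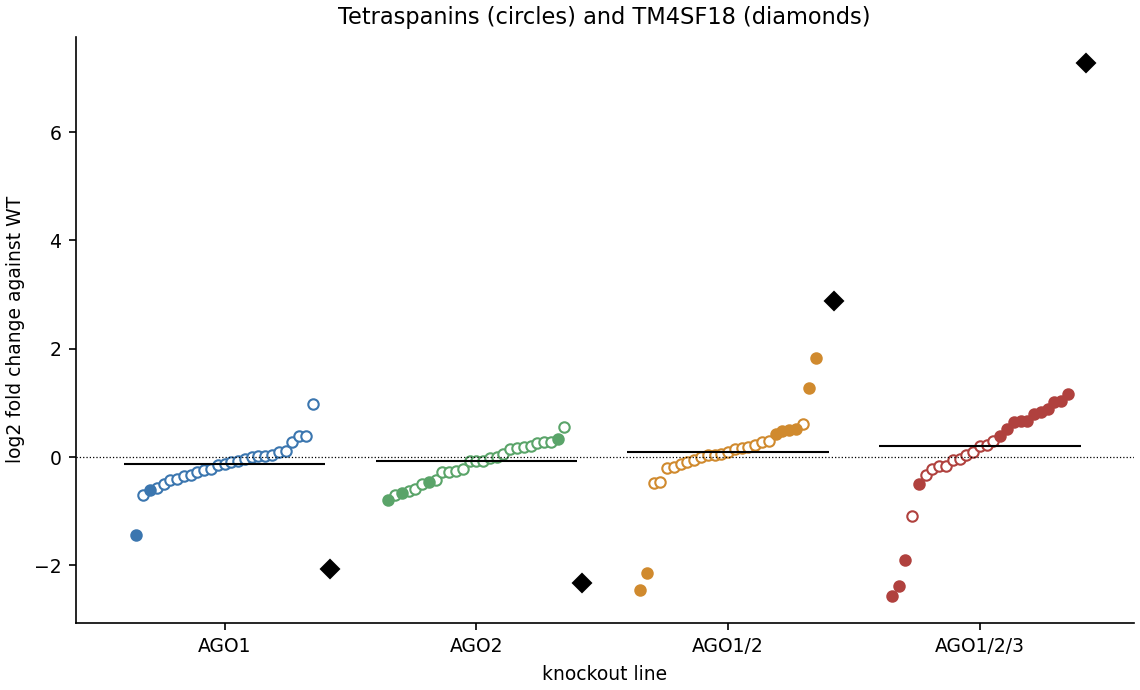
Log2 fold change against wild type of the 27 tested tetraspanins (circles, filled where called, in order of size) with their median (line) and TM4SF18 (diamond), by knockout line. TM4SF18 lies below the tetraspanins in AGO1 and AGO2 and above them in AGO1/2 and AGO1/2/3, at 7.27 in the last.

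Among 16082 other tested genes averaging 1 CPM or more, those most like TM4SF18 over the 15 libraries (Pearson r of log2 CPM) included RBM24, an RNA-binding protein gene, at 0.992, SERTAD4 at 0.985 and the teneurin gene TENM3 at 0.980. Without the AGO1/2/3 libraries, over 12 samples, r was 0.97, 0.94 and 0.95. These r values describe genes picked for a high r, and the points share their lines, so they carry no test. TENM3 stood at 1.18 ± 0.422 CPM in wild type, 0.403 ± 0.173 with AGO1 lost, 0.249 ± 0.136 with AGO2 lost, 8.42 ± 1.18 in the AGO1/2 line and 55.3 ± 8.39 in the AGO1/2/3 line. RBM24 had a smaller spread between lines, from 3.83 ± 0.467 CPM in the AGO2 line to 59.0 ± 5.31 CPM in the AGO1/2/3 line. Within the family r with TM4SF18 was 0.82 for TM4SF1, 0.61 for TM4SF19 and −0.24 for TM4SF20, and for WWTR1 it was 0.95. These last values are over all 15 libraries only, including the AGO1/2/3 libraries that chose the family.

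**Figure D5:**
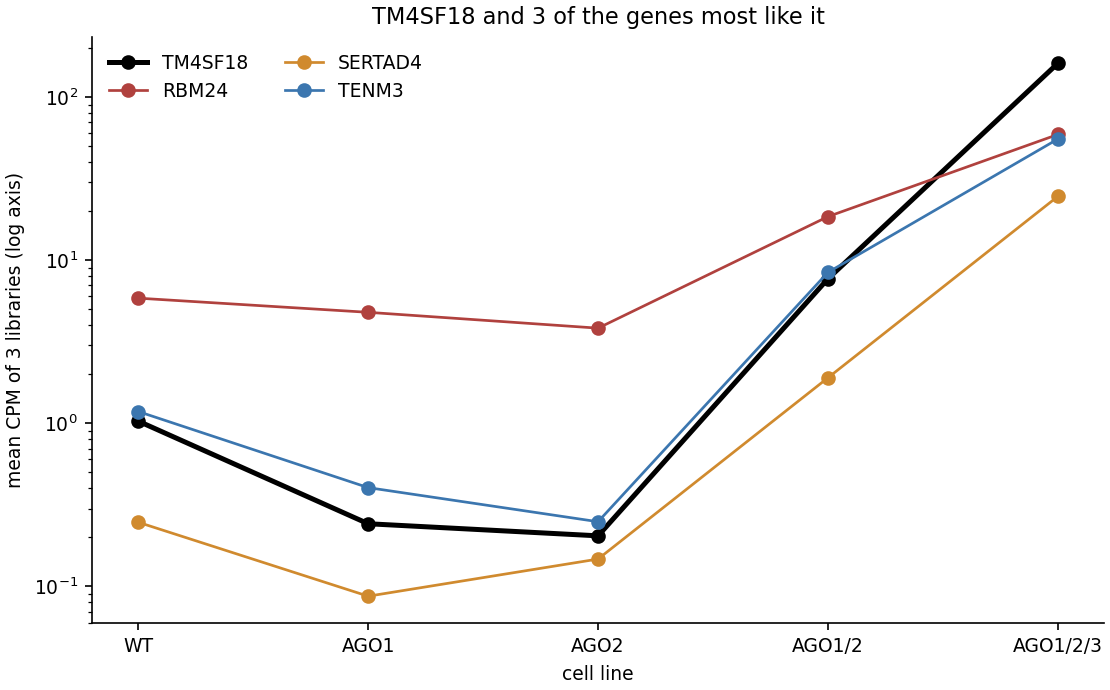
Mean level (CPM, log axis, 3 libraries each) of TM4SF18 and 3 of the genes most like it across the 5 lines. All 4 curves are lowest in a single knockout and highest in AGO1/2/3, and they differ in range, TM4SF18 running from 0.204 to 161 CPM and RBM24 from 3.83 to 59.0.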

How the data were processed

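The deposited values were estimated counts per gene, which the authors made with STAR and Salmon on build hg38; the submitters' processing notes name STAR 2.5.3a and Salmon 0.11.0, the study's methods name other versions of both, and which made the counts was not settled. The headers of the AGO2 files name a quasi-mapping run. The library kit was strand-specific, and whether counting used the strand is not given in the sources used here. From the deposited estimated counts, values were rounded and analysed with edgeR 4.0.16 in R 4.3.3: TMM scaling, filterByExpr with a minimum count of 10, 1 mean per line over all 15 libraries, glmQLFit and glmQLFTest, and Benjamini-Hochberg adjustment over 22842 genes, called at 0.05 or under. The steps were tested on simulated data. SE is the absolute log2 difference over the square root of the test statistic F. CPM uses the TMM-scaled library, and 57167 of 57875 identifiers were found in GENCODE 44, which is on the same build.

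Members and lists were chosen with earlier results of these data known. Named genes were the members, the AGO genes, tested neighbours with a mean of at least 1 CPM, up to 3 called tetraspanins per direction and line with that mean, 3 of the 5 genes with the highest r (the others are not used here), and for marker lists the most abundant gene and those at 0; others named were chosen after their values were seen. Exonic lengths, neighbours and 3′-UTRs of canonical transcripts came from GENCODE 44, and promoter windows of all 6 members and mature microRNAs from RefSeq tables (GRCh38.p14). The eCLIP samples were not analysed here. Alternatives were DESeq2 size factors, total counts, DESeq2 1.42.0, other filters, fewer libraries, a replicate block, and windows of 0.5 and 2 Mb.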

Additional observations from a re-analysis of the deposited data

Results flagged for a closer look

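A difference between groups stood out for TM4SF18: loss of AGO2 went with a lower level on its own and with a higher level on top of AGO1 loss, and the non-additive part was 7.28 on the log2 scale. All 3 AGO2 libraries lay below every wild type library and all 3 AGO1/2 libraries above every AGO1 library; the contrast was chosen after the values were seen and the difference was not tested. Each genotype is 1 line, so genotype and line cannot be told apart, and the part that the mapping mode of the AGO2 files plays was not tested.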

How the results depend on the processing

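Of 651 recomputed values of the members, the neighbours' medians and the counts of calls, 450 left out 1 library. Of these 423 were counted as unchanged, 21 moved, 5 lost a call and 1 reversed, and among the other 201 these numbers were 180, 19, 1 and 1. Unchanged takes in uncalled values whose sign turned, such as TM4SF19 in AGO1 (−0.14, and 0.15 without wild type replicate 2). It also takes in counts that fell well below the main one, such as 3820 genes called in AGO1/2 against 2569 without AGO1/2 replicate 2. Beside the exceptions below, leaving out a library kept the calls of TM4SF18 in the AGO2 line (−2.77 to −1.81, p up to 0.033) and in the AGO1/2 line (2.45 to 3.41, p up to 0.00045). Its AGO1/2/3 value ran from 6.82 to 7.79 and its non-additivity, chosen after the data were seen, from 6.74 to 7.71. The AGO2 value of TM4SF1, given without a test, ran from −5.98 to −3.95. In the AGO1 line TM4SF18 was at −2.06 with only the libraries compared and ran from −2.49 to −1.52 without 1 library.

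With only the libraries compared, hence fewer samples, the genes called went from 1982, 4408 and 3820 in AGO1, AGO2 and AGO1/2 to 658, 1868 and 2116, and leaving out a library gave 964 to 1983 for AGO1 (lowest without AGO1 replicate 2) and 1529 to 5190 for AGO2 (lowest without AGO2 replicate 2). Tetraspanins called went from 2 to 6 for AGO1 and from 8 to 5 for AGO1/2 under total counts, and with only the libraries compared to 1 for AGO2 and 4 for AGO1/2; without 1 library they ran from 2 to 5, 1 to 5 and 4 to 8. The cause was not tested.

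DESeq2 was run without the filter on low counts, so its neighbours' medians, like those without a filter, take in genes that the main fit leaves out. The neighbours' median for AGO1, −0.08, was −0.17 under total counts, 0.00 by DESeq2 and without a filter, −0.22 for genes averaging 1 CPM and −0.18 to −0.03 without 1 library. For AGO2, 0.07, it was 0.00 by DESeq2 and without a filter and reversed to −0.05 under total counts and to −0.03 without wild type replicate 3, the highest without 1 library being 0.09 and the value within 2 Mb 0.10. For AGO1/2, 0.27, it was 0.18 under total counts, 0.09 by DESeq2 and without a filter, 0.13 within 2 Mb and 0.17 to 0.39 without 1 library. For AGO1/2/3, 0.60, these were 0.46, 0.40, 0.35 (no filter), 0.42 and 0.53 to 0.67. The cause was not tested. Total counts moved the median of all genes to −0.10, −0.14, −0.08 and −0.15 in the 4 lines, and the percentage higher among called genes from 36.6, 44.3, 50.1 and 50.7% to 20.5, 17.0, 34.9 and 36.7%; changes are relative to that shift.

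Same-number replicates correlated at r from −0.39 to 0.49 (median −0.01, 8 of 30 pairs over 0.1), so the numbers gave no sign of pairing samples. With a block by replicate number TM4SF18 was −2.05, −2.32 and 2.90 in the AGO1, AGO2 and AGO1/2 lines, all called, while the edgeR calls of RNF13 and WWTR1-IT1 in AGO1/2 (adjusted p = 0.055 and 0.061), PFN2 in AGO1 (0.063), TSPAN1 in AGO2 (0.052) and TSPAN31 in AGO1/2/3 (0.052) were lost. AGO4 in AGO2 also lost its call under the block (−0.70, adjusted p = 0.063, same edgeR test). TENM3, picked for its high r with TM4SF18 and so given without a test, was at −1.55 in AGO1. Without 1 library it ran from −1.93 to −1.21. The calls of other named AGO genes, neighbours and tetraspanins lost without 1 library are given with those genes. The filter at a mean of 1 CPM gave no value for TM4SF1, TM4SF19 and TM4SF20, fits of only the compared libraries gave none for TM4SF1 outside AGO1/2/3, and TM4SF4 and TM4SF5 had none anywhere.

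Limits: each genotype is 1 line, so clone and genotype cannot be told apart. Depth bounds the low members, since 3 counts are up to 0.111 CPM. The TM4SF18 wild type level rests on 10 to 56 counts, and its error enters every fold change against it. The AGO1 and AGO2 levels rest on fewer counts, 5 to 11 and 8 to 10 per library. Their SEs, 0.54 and 0.52, were larger than those of AGO1/2 and AGO1/2/3, 0.34 and 0.36. RNA levels say nothing here of protein, and the contrasts share wild type libraries.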
